A study of Mus musculus with 18 samples.

Results

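Collagen genes were examined by poly(A) RNA-seq in 3 adipose tissues of the mouse. All rows of the count table whose gene symbol names a collagen chain, that is Col, a type number, the letter a and a chain number, were taken, which gave 44 genes of the 54347 in the table. 3 depots were used, namely brown fat from between the shoulder blades (iBAT, interscapular), white fat of the groin (iWAT, inguinal) and white fat along the epididymis (eWAT, epididymal). They came from 6 mice aged 12 weeks on the C57BL/6N background and kept on a chow diet, of which 3 carried the ΔGm15551 deletion (knockout, ko) and 3 were wild type (wt) litter mates. Which of them belonged to 1 litter is not given. This germline deletion was made with CRISPR/Cas9, removes exon 1 of the long noncoding RNA gene Gm15551 and is present in all cells of the animal, so that no effect can be assigned to a cell type. Each mouse gave all 3 tissues, which makes 18 libraries in 6 groups of 3.

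Collagens are proteins of the extracellular matrix in which 3 chains wind into a triple helix. Fibrillar collagens, among which types I and III are the most abundant of connective tissue, form the fibres that bear tension. Type IV forms the sheet-like network of basement membranes, which in adipose tissue surround every adipocyte as well as the blood vessels. Type VI forms beaded filaments that link the cell surface to the fibres. The remaining types lie on the surface of fibrils, anchor epithelia, or span the cell membrane.

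By type, 11 of the 44 members were fibrillar, 8 belonged to the basement membrane, with Col15a1 and Col18a1 of the basement membrane zone counted among them, 6 were beaded-filament chains and 19 were of other types. Of these, 31 had at least 1 count in every library, and 39 passed the filter on low counts and were tested among 18728 genes. The 5 members not tested were Col2a1, Col9a1, Col10a1, Col19a1 and Col25a1, which include the main collagens of cartilage, and none of them exceeded 31 counts in any library. No count or median over the tested members therefore stands for all 44.

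Total counts were between 14997901 and 34389586 per library, and 3 counts, the most that a count of 0 allows, corresponded to 0.0728 to 0.235 CPM, which are counts relative to the scaled library size. The defining genes matched the tissue labels, with Ucp1, the uncoupling protein of brown fat, at 3422 to 7994 CPM in iBAT and at most 55.3 CPM elsewhere, and with the adipocyte gene Adipoq at 712 to 2497 CPM in every library. Gm15551 itself was at 1.95 to 11.7 CPM in wt and at most 0.0970 CPM in ko libraries. Before the results are given, 4 libraries have to be named that held markers of another tissue. The eWAT library of ko replicate 3 had 4821 CPM of 5 epididymal genes, which summed to 16.4 CPM in wt replicate 1 and to at most 2.47 CPM in the remaining eWAT libraries. In iWAT, wt replicate 3 and ko replicate 2 had 1047 and 426 CPM of 8 lymph node genes, and ko replicate 1 had 4233 CPM of 8 skeletal muscle genes. Where the call of a collagen gene named here was lost without these 4 libraries, both values are given. Single genes that make, mature or bind collagen are given with all libraries only.

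In order to compare the tissues as a whole, the counts of all 44 members were summed. Collagen transcripts made up 0.158% to 0.209% of all counts in iBAT with a median of 0.180%. In iWAT they made up 0.791% to 2.19% with a median of 1.13%, and in eWAT 0.470% to 1.02% with a median of 0.860%. The iBAT libraries thus lay below all white libraries, while the 2 white tissues overlapped. Mitochondrial transcripts took 22.9% to 27.0% of the counts in iBAT and 3.77% to 9.64% in the white tissues, and with these left out the share in iBAT was still 0.215% to 0.278%. In bulk tissue, fewer cells of a type and less RNA per cell cannot be told apart.

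The make-up of the collagen counts differed as well. These shares are of counts, which grow with transcript length, and are compared between tissues. In iBAT, 47.8% to 58.9% of all collagen counts came from Col4a1 and Col4a2, the chains of the common basement membrane network, and 16.5% to 25.1% from Col1a1, Col1a2 and Col3a1. In iWAT 11.3% to 24.9% came from the type IV pair and 44.3% to 67.3% from types I and III. The eWAT libraries lay between these, with 32.7% to 37.5% and 22.8% to 30.8%, and did not overlap either tissue in the first of these shares. Beaded-filament chains held a similar part everywhere, 8.94% to 14.3% of the collagen counts in all 18 libraries.

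**Figure D1:**
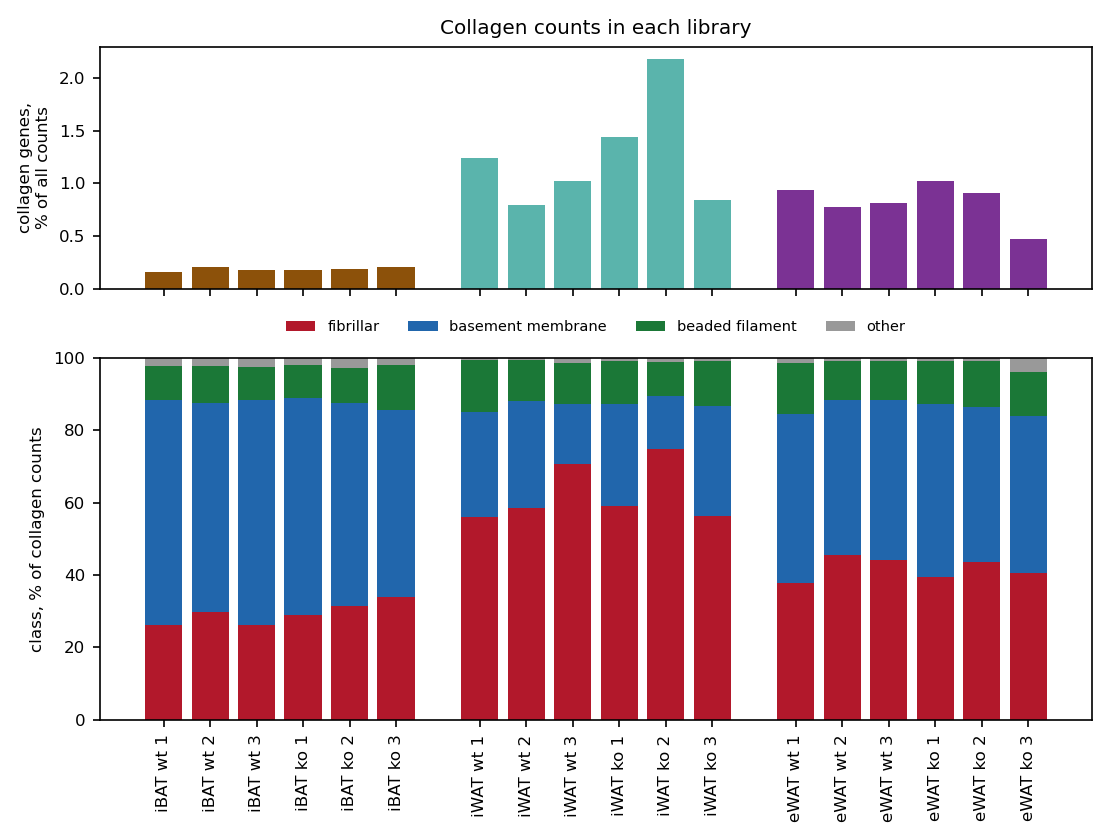
Collagen counts by library. The upper bars give the counts of all 44 collagen genes as a percentage of all counts, and the lower bars divide them among fibrillar, basement membrane, beaded-filament and other types, 1 bar per library. Fibrillar types made up 56.1% to 74.6% of the collagen counts in iWAT, 37.7% to 45.4% in eWAT and at most 34.01% in iBAT.

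To rank different genes within a tissue, their levels were taken as TPM, a value scaled by transcript length and library, with the longest annotated transcript as the length. Col4a1 was the highest member in iBAT with a median of 149 TPM, followed by Col4a2 with 113 TPM and Col3a1 with 58.8 TPM. In iWAT, Col3a1 led with 1172 TPM, and Col1a2 and Col1a1 came next with 663 and 481 TPM. In eWAT, Col4a1 with 612 TPM and Col3a1 with 573 TPM were closest, and their ranges of 296 to 720 and 289.7 to 707 TPM overlapped almost completely. The ranks of Col1a2 depend on the length used, since in iWAT it had rank 2 with the longest transcript and rank 5 with the union of its exons.

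Next, each gene was compared between the tissues with edgeR in a model with tissue and genotype. Between iBAT and iWAT, 28 of the 39 members passed an adjusted p of 0.05, of which 26 were lower in iBAT and 2 were higher. Among all 18728 genes tested, 54.3% passed, 30.3% of all genes being lower and 24% higher. The median log2 fold change was -1.86 over the members and -0.14 over all genes. Between iBAT and eWAT, 31 members passed, 25 lower and 6 higher in iBAT, where 54.6% of all genes passed, 30.2% lower and 24.4% higher. The medians were -1.40 and -0.17. Between the white tissues, iWAT and eWAT, 16 members passed, 10 higher and 6 lower in iWAT, where 10.2% of all genes passed, 5.7% higher and 4.5% lower. The members' median here was 0.25 and that of all genes 0.01. In all, 21 of the 39 members were lower in iBAT than in both white tissues, where 22.2% of all genes were, and 2 were higher than in both, where 20.6% of all genes were. Col4a3, Col7a1, Col8a1 and Col26a1 passed in no contrast. The 3 contrasts share libraries, and the counts are therefore not independent of each other. Without the 4 named libraries 24, 35 and 15 members passed in the 3 contrasts, beside 45.3%, 57.1% and 10.2% of all genes in that fit, and the members' median between the white tissues turned to -0.21. With wild type libraries only, 19, 26 and 5 of 38 members passed, beside 37.8%, 37.7% and 1.42% of all genes. With limma 32, 34 and 20 passed, beside 57.7%, 64% and 15.9% of all genes. The members called higher in iBAT than in iWAT, 2 in edgeR with all libraries, were 6 with limma, 4 with DESeq2, 4 without the 4 named libraries and 4 with wild type only.

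**Figure D2:**
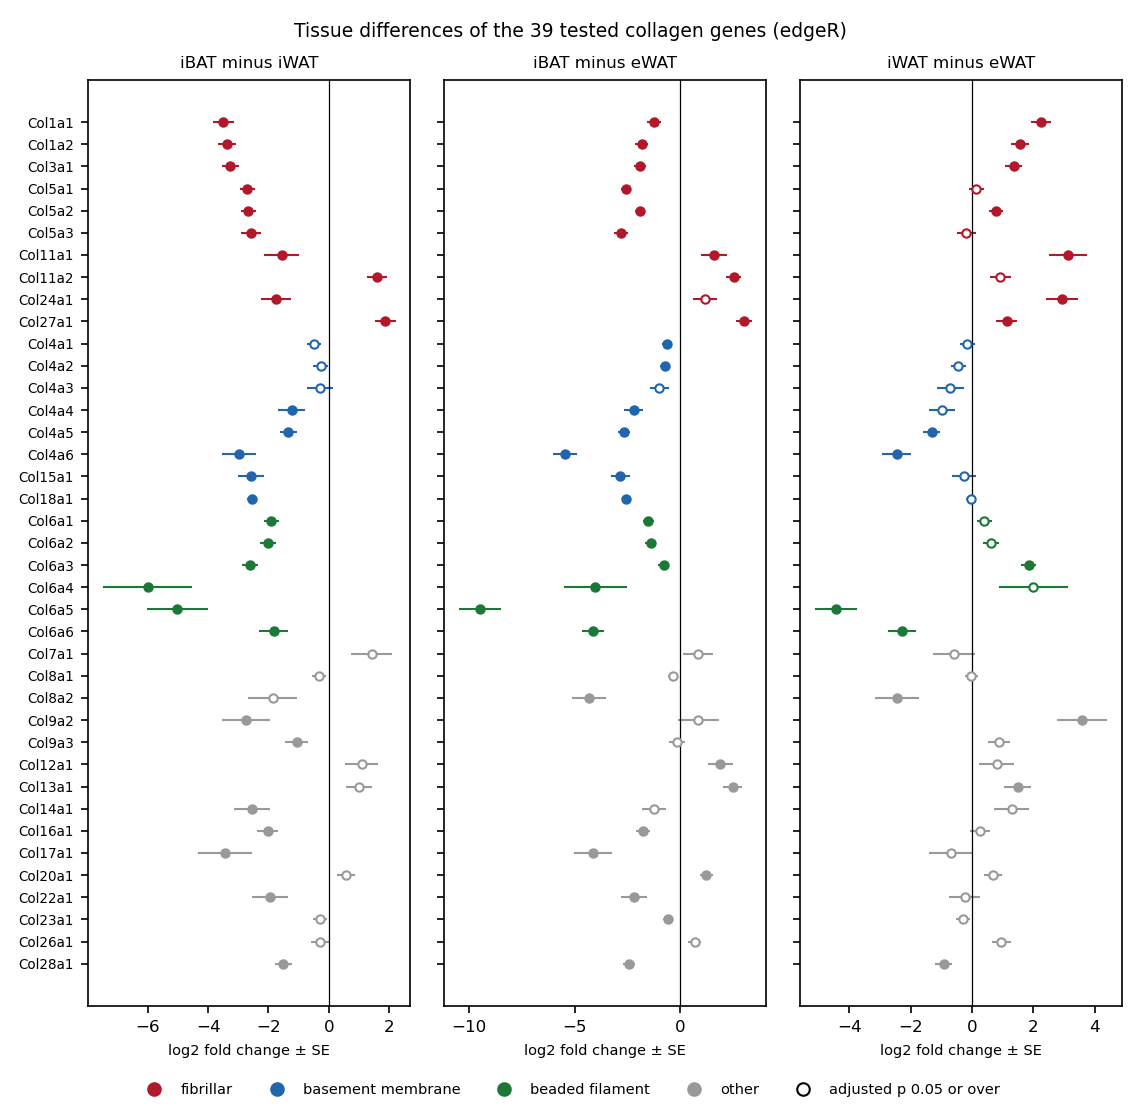
Log2 fold changes between tissues of the 39 tested collagen genes, with the SE as bars, for iBAT minus iWAT, iBAT minus eWAT and iWAT minus eWAT. Filled points passed an adjusted p of 0.05 in edgeR, colours give the class, and the horizontal scales differ. Most fibrillar and all beaded-filament genes lie to the left in the first 2 panels, and Col27a1 and Col11a2 lie to the right in all 3 panels.

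The fibrillar chains of types I, III and V were lower in iBAT than in both white tissues. Col1a1, the first chain of type I collagen (chromosome 11, 94936224 to 94953042, plus strand, GRCm38), was at 89.6 to 150 CPM in iBAT with a median of 123 CPM. In iWAT it was at 735 to 3206 CPM with a median of 1008 CPM, and in eWAT at 139 to 342 CPM with a median of 296 CPM. No iWAT library overlapped another tissue, while the lowest eWAT library, ko replicate 3, lay within the range of iBAT. The log2 fold change of iBAT against iWAT was -3.50 ± 0.34 (SE), which is an 11.3-fold lower level (edgeR, adjusted p = 2.7e-07). Against eWAT it was -1.25 ± 0.31 (adjusted p = 0.0028), and iWAT was 2.25 ± 0.32 above eWAT (adjusted p = 0.00031). In 21 other settings iBAT against iWAT was -3.66 to -2.85 and iWAT against eWAT 1.47 to 2.39 log2 units, and both calls held in all.

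Its partner chain Col1a2 was at 103 to 185 CPM in iBAT, against 812 to 3193 CPM in iWAT and, in eWAT, 282 to 593 CPM. Col3a1, the chain of type III collagen, was at 209 to 387 CPM, 1743 to 5166 CPM and 531 to 1423 CPM. For both genes none of the 3 tissues overlapped, and the order iWAT, eWAT, iBAT was found in each of the 6 mice. The fold changes of iBAT against iWAT were -3.38 ± 0.31 for Col1a2 and -3.26 ± 0.29 for Col3a1 in log2 units (adjusted p = 1.7e-07 and 1.3e-07). Those of iWAT against eWAT were 1.55 ± 0.29 and 1.35 ± 0.28 (adjusted p = 0.0033 and 0.0055), and with wild type libraries only they were 1.07 and 1.02 with adjusted p of 0.10 and 0.16.

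Type V collagen starts and limits the growth of type I fibrils. Its chains Col5a1, Col5a2 and Col5a3 had log2 fold changes of -2.70 ± 0.26, -2.67 ± 0.25 and -2.59 ± 0.33 in iBAT against iWAT, and of -2.57 ± 0.26, -1.89 ± 0.24 and -2.79 ± 0.33 against eWAT, all with an adjusted p of 5.4e-06 or less in edgeR. In iBAT their ranges were 31.3 to 49.4, 27.4 to 41.5 and 80.9 to 90.3 CPM, and no white library of any of the 3 genes fell below 64.8 CPM. Between the white tissues Col5a1 and Col5a3 did not pass the test (0.13 ± 0.24 and -0.20 ± 0.31), and Col5a2 was 0.78 ± 0.23 higher in iWAT with an adjusted p of 0.046, which it lost in 13 of 21 other settings. Without the 4 named libraries it was 0.35 ± 0.17 (adjusted p = 0.23).

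The minor fibrillar chains did not follow this order. Col27a1, a long fibrillar chain known from developing cartilage, was at 50.5 to 100.1 CPM in iBAT with a median of 74.0 CPM, at 16.2 to 28.7 CPM in iWAT and at 4.85 to 29.8 CPM in eWAT. The value of 29.8 CPM came from ko replicate 3, and the other 5 eWAT libraries held 8.71 CPM or less. Neither white tissue overlapped iBAT, where Col27a1 was 1.87 ± 0.35 above iWAT and 2.99 ± 0.37 above eWAT in log2 units (edgeR, adjusted p = 0.00026 and 3.1e-06). Col11a2, a chain of type XI collagen, moved likewise, with 6.95 to 15.04 CPM in iBAT, against 1.43 to 5.47 CPM in iWAT and 1.19 to 3.17 CPM in eWAT. Its log2 fold changes were 1.59 ± 0.34 and 2.51 ± 0.35 (adjusted p = 0.00080 and 1.3e-05).

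Col11a1, its partner in type XI, had another order, with a median of 1.78 CPM in iWAT, 0.649 CPM in iBAT and 0.272 CPM in eWAT. It was 3.14 ± 0.62 higher in iWAT than in eWAT (adjusted p = 0.0043), a call that was lost with wild type libraries only (adjusted p = 0.22 in edgeR). Its differences from iBAT, -1.57 ± 0.58 and 1.57 ± 0.62 log2 units, had adjusted p of 0.031 and 0.040, and with the mouse as a block these were 0.058 and 0.052. Without the 4 named libraries the difference from iWAT was -1.20 ± 0.64 (adjusted p = 0.14). The values rest on few reads, 5 to 20 counts per iBAT library and 0 to 22 per eWAT library. Col24a1 had 11 to 51 counts per iWAT library and 0 to 9 elsewhere, and passed between iWAT and each of the other tissues. Both calls were lost with wild type libraries only, and that between iWAT and iBAT also without ko replicate 1.

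Sequence upstream of the annotated start is shown for one fibrillar gene of each direction, the 250 bases before the start site as given by RefSeq for GRCm38.p6, which held such windows for 35 of the 44 members. Capitals mark matches on either strand to the letters TATAAA of the TATA box, to GGGCGG of the GC box or to CCAAT of the CCAAT box. In this order the 3 were found in 12.4%, 32.7% and 33.8% of all 32851 windows of this length and in 5, 21 and 13 of the 35 members. Col3a1 lies on chromosome 1 from 45311538 to 45349706 and Col27a1 on chromosome 4 from 63214004 to 63334991, both on the plus strand, and the window of Col27a1 lies inside the annotated gene, before a later start. A match is a description of the letters and not a binding site.

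Col3a1, chr1:45311288-45311537, plus strand: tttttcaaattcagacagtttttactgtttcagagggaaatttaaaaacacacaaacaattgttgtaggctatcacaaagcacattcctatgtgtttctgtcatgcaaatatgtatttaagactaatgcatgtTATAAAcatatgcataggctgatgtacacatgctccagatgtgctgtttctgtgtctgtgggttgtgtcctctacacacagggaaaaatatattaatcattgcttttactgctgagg

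Col27a1, chr4:63215162-63215411, plus strand: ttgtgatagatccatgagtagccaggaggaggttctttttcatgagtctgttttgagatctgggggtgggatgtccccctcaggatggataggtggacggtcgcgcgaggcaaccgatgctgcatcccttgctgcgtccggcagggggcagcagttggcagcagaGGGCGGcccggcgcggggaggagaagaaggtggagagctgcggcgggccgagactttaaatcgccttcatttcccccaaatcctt

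The window of Col3a1 held TATAAA and neither of the other motifs, with a GC content of 35.2%. That of Col27a1 held GGGCGG alone and had a GC content of 59.6%.

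Among the basement membrane genes, Col4a1 and Col4a2 had small differences between the tissues. Col4a1 was at 798 to 912 CPM in iBAT with a median of 824 CPM, 578 to 1767 CPM in iWAT with a median of 1146 CPM, and 644 to 1735 CPM in eWAT with a median of 1431 CPM. Both white ranges enclosed that of iBAT. The log2 fold change of iBAT was -0.50 ± 0.24 against iWAT (edgeR, adjusted p = 0.086) and -0.65 ± 0.24 against eWAT (adjusted p = 0.028). Its partner Col4a2 was at 579 to 688 CPM in iBAT, 349 to 1136 CPM in iWAT and, in eWAT, at 495 to 1390.1 CPM, with differences of -0.27 ± 0.24 (adjusted p = 0.37) and -0.71 ± 0.24 (adjusted p = 0.020). The low ends in the white tissues came from iWAT wt replicate 3 and eWAT ko replicate 3. Without the 4 named libraries the differences from iWAT were -0.54 for Col4a1 and -0.32 for Col4a2 (adjusted p = 0.0033 and 0.053), and those from eWAT were -0.80 and -0.86 (adjusted p = 2.2e-05 and 1.1e-05). The calls of Col4a1 and Col4a2 against eWAT were lost in 6 and 5 of 21 other settings, among them wild type libraries only.

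The 2 genes lie head to head on chromosome 8, where their annotated ends overlap by 22 bp, and since no source used here gives the strand setting of the quantification, reads from the overlap cannot be told apart. Col4a3 and Col4a4, also head to head, 71 bp apart on chromosome 1, form with Col4a5 the network known from the glomerulus. Col4a3 had similar medians of 1.96, 1.95 and 2.29 CPM in iBAT, iWAT and eWAT and passed in no contrast. Col4a4 had medians of 2.37, 4.70 and 7.05 CPM and differed in iBAT by -1.24 ± 0.44 from iWAT and by -2.21 ± 0.45 from eWAT (adjusted p = 0.024 and 0.00049). The first of these was lost without the 4 libraries (-0.91, adjusted p = 0.17). In eWAT, wt replicate 1 had 9.76 CPM of Col4a3 and 28.0 CPM of Col4a4, and the other 5 libraries at most 4.85 and 11.9 CPM.

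Col4a5 and Col4a6, the third head-to-head pair, lie 1308 bp apart on the X chromosome and had the same order of tissues. Col4a5 was at 2.93 to 5.19 CPM in iBAT, against 4.77 to 20.8 CPM in iWAT and 19.995 to 37.7 CPM in eWAT. Col4a6 had 2 to 8 counts per iBAT library, 0.129 to 0.495 CPM, against 0.484 to 4.26 CPM in iWAT and 7.56 to 13.1 CPM in eWAT. Every eWAT library exceeded every iBAT library for both genes, and for Col4a6 also every iWAT library. Between iWAT and eWAT the fold changes were -1.32 ± 0.28 for Col4a5 and -2.46 ± 0.48 for Col4a6 in log2 units (adjusted p = 0.0065 and 0.0038). Within iWAT, Col4a6 was at 4.26, 3.76 and 1.95 CPM in ko replicate 3, ko replicate 2 and wt replicate 3 and at 0.484 to 0.889 CPM in the others. The same 3 libraries had 54.8, 35.5 and 24.2 CPM of the 5 mesothelial markers against 3.12 to 4.49 CPM in the others. Only 3 of these 5 markers exceeded 3 counts in them. They also had 15.3, 12.8 and 7.32 CPM of 4 keratin genes used as epidermal markers, against 2.94 to 4.16 CPM in the others. The part of both lists in the result was not tested. In eWAT the mesothelial markers were at 69.0 to 122 CPM and in iBAT at 4.02 to 6.89 CPM, where up to 4 of the 5 were at 0.

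The genes of the multiplexins, which release antiangiogenic fragments such as endostatin, were low in iBAT. Col15a1 was at 47.0 to 70.2 CPM in iBAT, and in iWAT and eWAT at 123 to 729 and 148 to 864 CPM. Col18a1 was at 23.1 to 34.1, 108 to 250.2 and 124 to 212 CPM. No white library of either gene reached down to iBAT, and the differences were -2.57 ± 0.42 and -2.83 ± 0.43 for Col15a1 and -2.55 ± 0.16 and -2.59 ± 0.16 for Col18a1 against iWAT and eWAT (edgeR, adjusted p = 8.6e-05, 3.1e-05, 3.5e-09 and 1.6e-09). Between the white tissues neither passed, with -0.26 ± 0.40 for Col15a1 and -0.03 ± 0.15 for Col18a1. Endothelial markers, 6 of 6 detected in all libraries, summed to 899 to 1082 CPM in iBAT, and to 556 to 876 and 485 to 1048 CPM in iWAT and eWAT. Mural cell markers were at 756 to 860.0, 332 to 836 and 504 to 1225 CPM. The median of both lists was highest in iBAT, and the part of cell make-up in the collagen levels was not tested.

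**Figure D3:**
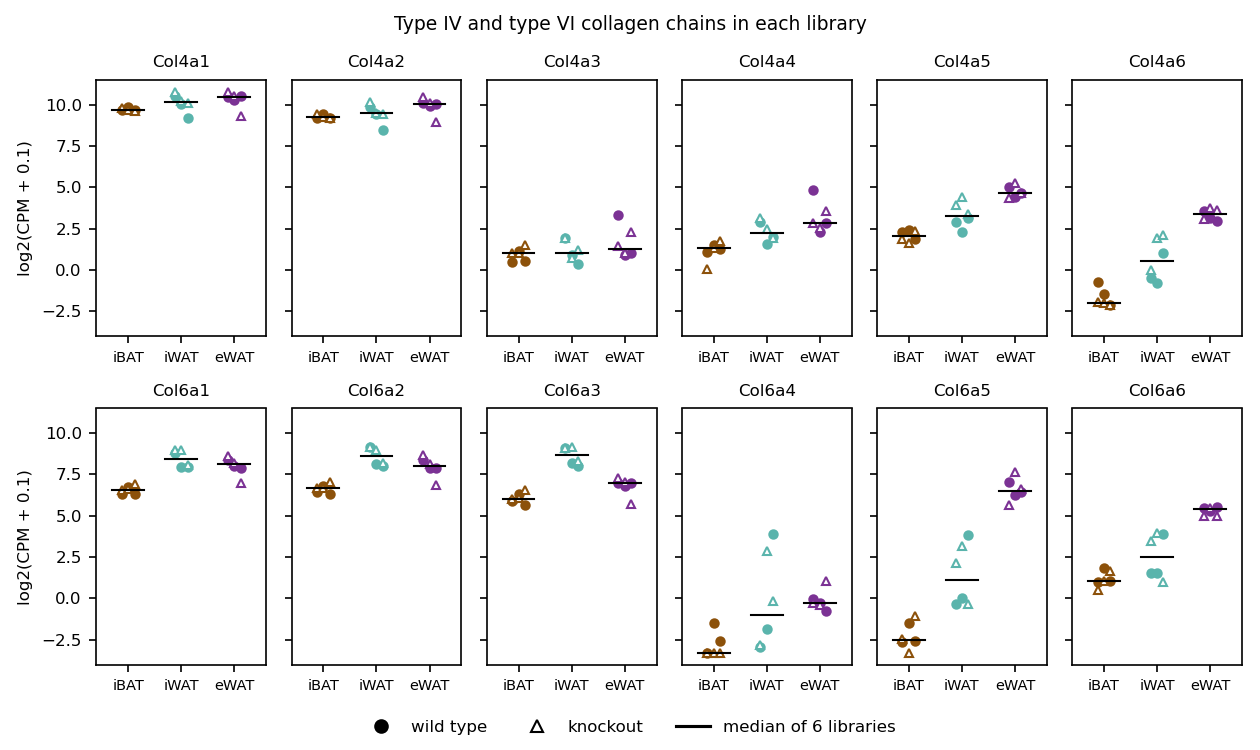
Type IV (upper row) and type VI (lower row) collagen chains in each of the 18 libraries, as log2(CPM + 0.1). Filled circles are wild type, open triangles are knockout and lines give the median of 6 libraries. Col4a1 and Col4a2 change little between tissues, and Col4a6, Col6a5 and Col6a6 stand highest in eWAT, at 7.56 to 13.1, 50.0 to 200.4 and 31.1 to 46.0 CPM.

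All 6 beaded-filament genes were called lower in iBAT than in both white tissues with all libraries, but they divided into 3 patterns between the white tissues. The calls of Col6a4 and Col6a6 against iWAT were lost with limma, with wild type libraries only and without the 4 named libraries, where the differences were -2.38 ± 1.04 and -0.08 ± 0.24 (adjusted p = 0.077 and 0.80). That of Col6a4 against eWAT was lost in 6 of 20 other settings. Col6a1, Col6a2 and Col6a3 encode the common type VI heterotrimer. Col6a1 was at 80.3 to 120.1 CPM in iBAT, and at 244 to 496 and 127 to 390.3 CPM in iWAT and eWAT. The differences of iBAT were -1.91 ± 0.25 and -1.51 ± 0.24 for Col6a1, and -2.01 ± 0.27 and -1.40 ± 0.27 for Col6a2 (edgeR, adjusted p of 0.00032 or less). For these 2 genes iWAT and eWAT were not called different, with 0.40 ± 0.24 and 0.61 ± 0.26 (adjusted p = 0.31 and 0.16). Col6a3, in contrast, was at 256 to 579 CPM in iWAT and 52.8 to 154 CPM in eWAT with no overlap, a difference of 1.84 ± 0.26 (adjusted p = 0.00025). In iBAT it was at 50.5 to 95.1 CPM, with differences of -2.62 ± 0.27 from iWAT and -0.78 ± 0.25 from eWAT (adjusted p = 4.7e-07 and 0.015). The last of these was lost in 5 of 21 other settings.

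Col6a4, Col6a5 and Col6a6 encode alternative chains that can take the place of the α3 chain, and lie in a row on the minus strand of chromosome 9, Col6a6 from 105687809 to 105828160, Col6a5 from 105856078 to 105960643 and Col6a4 from 105989454 to 106096783. Col6a5 was at 50.0 to 200.4 CPM in eWAT, or 1166 to 8259 counts. In iWAT it was at 0.682 to 13.9 CPM, and in iBAT the 6 libraries held 0 to 6 counts, at most 0.386 CPM. The 3 tissues did not overlap, and all contrasts passed (adjusted p = 0.00051 against iWAT, 5.9e-07 against eWAT and 0.00070 for iWAT against eWAT). The last difference was -4.44 ± 0.70 log2 units. Col6a6 had the same order at another scale, with medians of 42.0 CPM in eWAT, 6.96 CPM in iWAT and 1.95 CPM in iBAT, and a difference of -4.11 ± 0.51 between iBAT and eWAT (adjusted p = 3.6e-06). In eWAT, Col6a5 reached a median level per length of 28.7 TPM and Col6a3 of 35.1 TPM.

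Both genes varied within iWAT. Col6a5 was at 13.9, 9.07 and 4.33 CPM in wt replicate 3, ko replicate 2 and ko replicate 1 and at 0.682 to 0.933 CPM in the other 3 libraries. Col6a6 was at 14.7, 15.7 and 11.1 CPM in the same libraries and at 1.91 to 2.83 CPM in the others. The 4 lymphatic endothelial markers summed to 81.2, 79.5 and 85.3 CPM in these libraries and to 24.0 to 24.2 CPM in the others. They were at 21.1 to 28.9 CPM in iBAT and 31.9 to 73.0 CPM in eWAT, and their part was not tested. With the 4 named libraries left out, the difference of Col6a6 between iBAT and iWAT was thus near 0, in place of -1.83 ± 0.48 (adjusted p = 0.0040) with all of them. That of iWAT against eWAT became larger, -4.07 for Col6a6 and -7.11 for Col6a5.

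Col6a4 was carried by single libraries. It had 457 counts in iWAT wt replicate 3 and 170 in ko replicate 2, which are 15.1 and 7.27 CPM, and at most 0.807 CPM in the other 4 iWAT libraries. In eWAT it was at 0.494 to 1.93 CPM, and in iBAT 4 libraries had 0 counts and the others 1 and 4. The iWAT pair are the libraries with lymph node markers at 1047 and 426 CPM, where the others had 5.39 to 19.9 CPM. Against iWAT the adjusted p of 0.0026 became 0.077 without the 4 libraries, and against eWAT it went from 0.032 to 0.0043.

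Upstream sequences are printed for Col6a3 and Col6a5, a pair of type VI genes with opposite differences between the white tissues, both on the minus strand and read in the direction of transcription, with capitals as above.

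Col6a3, chr1:90843972-90844221, minus strand: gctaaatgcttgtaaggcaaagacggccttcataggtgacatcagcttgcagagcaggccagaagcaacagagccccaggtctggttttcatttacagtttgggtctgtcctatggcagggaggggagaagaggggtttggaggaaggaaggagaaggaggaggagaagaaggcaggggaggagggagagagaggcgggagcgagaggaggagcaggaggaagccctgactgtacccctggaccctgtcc

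Col6a5, chr9:105960644-105960893, minus strand: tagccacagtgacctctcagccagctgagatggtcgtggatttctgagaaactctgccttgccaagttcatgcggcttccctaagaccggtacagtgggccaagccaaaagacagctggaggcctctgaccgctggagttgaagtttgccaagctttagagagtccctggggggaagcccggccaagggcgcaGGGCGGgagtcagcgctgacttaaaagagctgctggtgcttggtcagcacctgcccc

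None of the 3 motifs was found in the window of Col6a3, and GGGCGG was found once in that of Col6a5. Their GC contents were similar, 57.2% and 58.8%.

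Of the 15 tested members of other types, 7 were lower and 0 higher in iBAT than in iWAT, and 6 were lower and 3 higher than in eWAT. These are 46.7% and 60.0% of the class, beside 54.3% and 54.6% of all genes. Those that rose against eWAT were Col12a1 and Col20a1, which bind to the surface of fibrils, and Col13a1, a transmembrane collagen. Col13a1 was at 3.28 to 5.39 CPM in iBAT and 0.198 to 2.11 CPM in eWAT, with no overlap and a difference of 2.48 ± 0.45 log2 units (edgeR, adjusted p = 0.00021). Col12a1 was at 7.06 to 20.03 and 0.679 to 8.54 CPM (1.89 ± 0.59, adjusted p = 0.012), and Col20a1 at 4.85 to 8.21 and 2.06 to 7.03 CPM (1.23 ± 0.30, adjusted p = 0.0022). The call of Col12a1 was lost without wt replicate 2 (adjusted p = 0.060 in edgeR). Against iWAT the differences of all 3 were positive but did not pass, with 0.99, 1.09 and 0.56 for Col13a1, Col12a1 and Col20a1. Without the 4 named libraries Col12a1 was 2.36 above iWAT (adjusted p = 0.0051). With the mouse as a block, Col20a1 was 0.59 ± 0.21 above iWAT (adjusted p = 0.028) and iWAT was 0.72 ± 0.21 above eWAT (adjusted p = 0.048).

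Among the other types that fell, Col28a1 and Col16a1 had the clearest separation. Col28a1 was at 11.4 to 23.4 CPM in eWAT, 6.20 to 12.1 CPM in iWAT and 1.30 to 4.65 CPM in iBAT, and this order was found in 6 of 6 mice. The differences of iBAT were -1.52 ± 0.28 from iWAT and -2.44 ± 0.29 from eWAT (adjusted p = 0.00025 and 2.0e-06), and that of iWAT from eWAT was -0.93 ± 0.27 (adjusted p = 0.040, and 0.058 with the mouse as a block). Col16a1, which sits at the edge of fibrils and basement membranes, was at 3.86 to 6.84, 11.4 to 41.0 and 8.10 to 28.8 CPM, with differences of -2.03 ± 0.35 and -1.78 ± 0.34 in iBAT (adjusted p = 0.00012 and 0.00034). Col8a2, a chain of the short network of Descemet's membrane, had 0 to 7 counts per iBAT library, 11 to 21 per iWAT library and 17 to 339 per eWAT library, where wt replicate 1 held 14.9 CPM and the other 5 libraries 0.840 to 2.38 CPM. It differed between iBAT and eWAT (adjusted p = 0.00028), and its difference of iWAT from eWAT had an adjusted p of 0.042 that became 0.11 with the mouse as a block and 0.064 without the 4 named libraries.

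Single libraries stood out for Col14a1 and Col17a1. Col14a1, a marker of adventitial and interstitial fibroblasts, was at 84.5, 45.2 and 33.8 CPM in iWAT ko replicate 2, ko replicate 1 and wt replicate 3 and at 6.60 to 9.30 CPM in the other 3. These are the libraries with the higher lymphatic endothelial markers. Its difference between iBAT and iWAT was -2.54 ± 0.60 (adjusted p = 0.0020) with all libraries and -0.71 ± 0.32 (adjusted p = 0.090) without the 4. Col17a1, a hemidesmosomal collagen of the epidermis, had 0 to 5 counts per iBAT library, 8 to 94 per iWAT library and 9 to 240 per eWAT library, the last in ko replicate 3. It was called lower in iBAT than in both white tissues, and without the 4 named libraries the differences were -3.08 ± 0.78 and -3.08 ± 0.72 (adjusted p = 0.0051 and 0.0023). With wild type libraries only both calls were lost (adjusted p = 0.089 and 0.055 in edgeR). The iWAT libraries highest in Col17a1, ko replicates 2 and 3 and wt replicate 3, had 12.8, 15.3 and 7.32 CPM of the epidermal markers. The other iWAT libraries had 2.94 to 4.16 CPM, and the part of these markers was not tested. Col9a2, a chain of the type IX collagen of cartilage, had 4 to 32 counts in iWAT, 0 to 3 in iBAT and 0 to 7 in eWAT, where 4 libraries had 0. It passed in iWAT against iBAT and against eWAT (adjusted p = 0.0085 and 0.011).

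The remaining members of other types differed little or were near the floor. Col23a1, a transmembrane collagen, had medians of 5.72, 6.75 and 8.36 CPM in the 3 tissues and was called between iBAT and eWAT (-0.59 ± 0.23, adjusted p = 0.036 in edgeR, and 0.061 with the mouse as a block). Col8a1, the partner of Col8a2, had medians of 6.41, 8.22 and 7.61 CPM and Col26a1 of 1.71, 2.22 and 0.857 CPM, and neither passed. Col22a1, known from tissue junctions such as those of muscle and tendon, had 0 to 6 counts per iBAT library and 5 to 42 in the white ones, and was called against both. The 42 counts came from iWAT ko replicate 1, the library with skeletal muscle markers, and without the 4 named libraries its difference from iWAT changed from -1.95 ± 0.59 (adjusted p = 0.011) to -1.24 ± 0.68 (adjusted p = 0.16). Col9a3 had 5 to 64 counts and was called between iBAT and iWAT alone (-1.07 ± 0.37, adjusted p = 0.022). This call was lost in 7 of 20 other settings, among them without iWAT ko replicate 2, which held the 64 counts (-0.87 ± 0.37, adjusted p = 0.066), and without the 4 named libraries (-0.86 ± 0.41, adjusted p = 0.11).

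Col7a1, the anchoring fibril of the epidermis, was at 9.85 to 16.7 CPM in iBAT and 1.98 to 10.1 CPM in iWAT. In eWAT it was at 48.0 CPM in ko replicate 3 and at 1.59 to 2.99 CPM in the other 5 libraries. With all libraries no contrast passed, iBAT being 0.83 ± 0.71 above eWAT (edgeR, adjusted p = 0.34). With the mouse as a block this was 1.72 ± 0.69 (adjusted p = 0.049), and without the eWAT library of ko replicate 3 it was 2.46 (adjusted p = 1.9e-05). Without that library iWAT was 1.16 above eWAT (adjusted p = 0.043), whereas with it the difference was -0.59 ± 0.70. The same library held 79.7 CPM of the 4 keratin genes used as epidermal markers, 1 of them at 0, and the whole of eWAT had a median of 3.35 CPM. It is also the library with 4821 CPM of epididymal genes, and the source of the keratin counts was not tested. Within eWAT it was also the highest in Col27a1, Col20a1 and Col17a1 and the lowest in Col1a1, Col1a2, Col3a1, Col4a1 and Col4a2.

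To ask whether chains that share a trimer or a fibril keep their proportion, the ratio of their counts was compared between tissues within each mouse. This ratio does not depend on the scaling of the library. An exact paired permutation test over 6 mice was used, two-sided, in which the smallest possible p is 0.03125. Adjusted over the 12 tests made, this p became 0.042 here, a value that depends on how many tests reached it. Col1a1 and Col1a2 join in the type I trimer. Their ratio had a median of 0.828 in iBAT and 0.892 in iWAT, which did not differ (p = 0.22 in the exact test), and 0.530 in eWAT, lower in 6 of 6 mice than in either tissue (exact test, adjusted p = 0.042 for both).

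Col4a1 and Col4a2, which join in 1 trimer, had ratios of 1.53 to 1.66 in iWAT, 1.32 to 1.40 in iBAT and 1.25 to 1.36 in eWAT. The ratio in iWAT was above both other tissues in 6 of 6 mice, and all 3 contrasts reached the smallest possible p of the exact test. The log2 differences were small, -0.23 ± 0.036 (SD, n = 6) for iBAT against iWAT, 0.060 ± 0.024 for iBAT against eWAT and 0.29 ± 0.027 for iWAT against eWAT. The ratio of Col6a3 to Col6a1 showed the widest range on the log2 scale, with medians of 0.703, 1.17 and 0.426 in iBAT, iWAT and eWAT and no overlap between the tissues. Again all 3 contrasts had 6 of 6 mice in 1 direction. For Col3a1 over Col1a1, which lie in the same fibrils, the medians were 2.30, 2.14 and 3.93. The ratio was higher in eWAT than in iBAT in 6 of 6 mice (exact test, adjusted p = 0.042) and higher than in iWAT in 5 of 6 (adjusted p = 0.075).

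**Figure D4:**
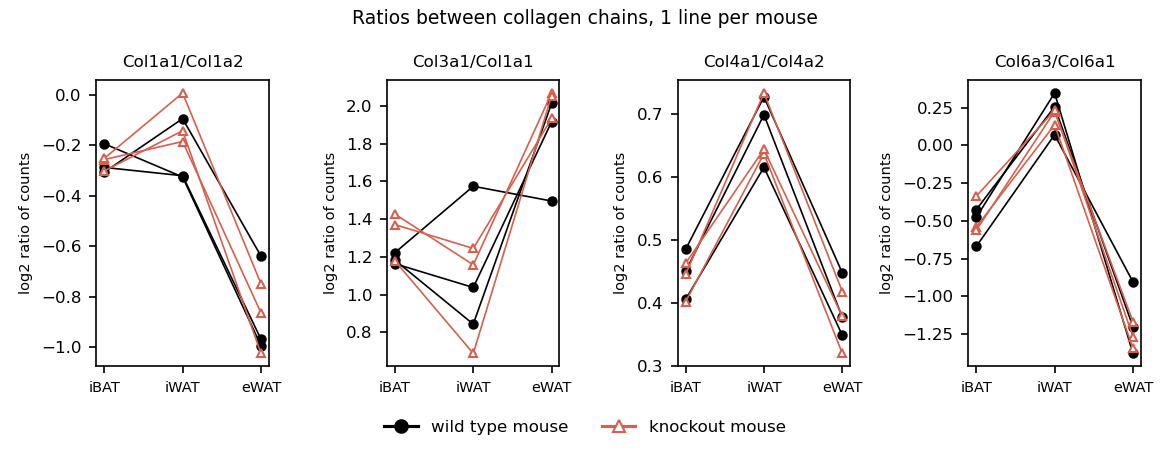
Ratios of counts between collagen chains (log2, vertical axes cut to the range of the data) in the 3 tissues, with 1 line per mouse, black circles for wild type and red triangles for knockout. Col4a1/Col4a2 and Col6a3/Col6a1 peak in iWAT in all 6 mice, and Col1a1/Col1a2 is lowest in eWAT in all 6.

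The genes that make, mature and bind collagen were read from the same tests. Of 62 such genes 60 were tested, and Tll2 and Gp6 were not. Between iBAT and iWAT 42 were lower and 4 higher in iBAT, with a median of -1.43, and between iBAT and eWAT 39 were lower and 6 higher, with a median of -1.02. Between iWAT and eWAT 10 were higher and 5 lower in iWAT, with a median of 0.13. These read against 54.3%, 54.6% and 10.2% of all genes called.

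The 18 modifying enzymes and chaperones were divided, 10 lower and 2 higher in iBAT than in iWAT and 10 lower and 3 higher than in eWAT. In either direction these are 66.7% and 72.2% of the list, not far above all genes, of which 30.3% and 30.2% were lower and 24% and 24.4% higher. P4hb, the common subunit of the prolyl hydroxylase of collagen, had log2 fold changes of -1.42 ± 0.11 against iWAT and -1.62 ± 0.11 against eWAT (edgeR, adjusted p = 1.7e-08 and 2.8e-09), and Fkbp10, a collagen chaperone, of -2.24 ± 0.20 and -1.90 ± 0.20. P4ha1, a catalytic subunit of the same hydroxylase, was in contrast 0.99 ± 0.38 and 1.62 ± 0.38 higher in iBAT (adjusted p = 0.034 and 0.0018), as was Colgalt2, a galactosyltransferase, by 0.74 ± 0.29 and 1.27 ± 0.30. All 5 genes of the lysyl oxidase family, which cross-link collagen, were lower in iBAT than in both white tissues, with -2.31 ± 0.25 and -1.46 ± 0.25 for Loxl2, -1.77 ± 0.21 and -1.13 ± 0.21 for Loxl3 and -2.04 ± 0.27 and -1.92 ± 0.27 for Loxl1. Of the 7 tested genes of propeptide processing, 6 and 5 were lower and 0 higher. Adamts2 and Adamts14, which remove the N-propeptide of fibrillar collagens, had -3.30 ± 0.32 and -3.09 ± 0.32, and -2.80 ± 0.24 and -2.18 ± 0.23 (adjusted p of 6.9e-07 or less).

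Of 11 genes of fibril-associated matrix, 10 were lower in iBAT than in iWAT and 10 lower than in eWAT. Decorin (Dcn), which coats fibrils, had log2 fold changes of -2.34 ± 0.23 and -2.59 ± 0.23 (adjusted p = 2.9e-07 and 7.5e-08). The difference of Thbs2 from iWAT was -3.95 ± 0.38, and that of Fmod from eWAT was -5.02 ± 0.55. Among 9 receptors tested, 6 were lower and 1 higher in iBAT than in iWAT, and 3 lower and 1 higher than in eWAT. These are 77.8% and 44.4% of the list, beside 54.3% and 54.6% of all genes. The discoidin domain receptors Ddr1 and Ddr2, which are activated by collagen, differed by -1.67 ± 0.19 and -1.91 ± 0.23 from iWAT and by -2.62 ± 0.20 and -1.78 ± 0.23 from eWAT. Itga1, the integrin chain that binds type IV collagen, was in contrast 0.71 ± 0.17 above iWAT and 0.70 ± 0.17 above eWAT (adjusted p = 0.0022 and 0.0023). Of 10 partners in the basement membrane, Nid1, which links laminin to type IV collagen, had -2.23 ± 0.27 and -2.34 ± 0.27, while Agrn was 0.72 ± 0.18 and 0.58 ± 0.17 higher.

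Between the white tissues, fewer of these genes were called. Pcolce and Pcolce2, which enhance the removal of the C-propeptide, were 1.55 ± 0.22 and 1.85 ± 0.39 higher in iWAT (edgeR, adjusted p = 0.00023 and 0.0072), as were the fibril-coating Lum by 1.44 ± 0.23 and the collagen uptake receptor Mrc2 by 1.34 ± 0.24. P4ha3, another prolyl hydroxylase subunit, had the largest difference with 4.10 ± 0.93. Lower in iWAT were Fmod (-1.70 ± 0.46), Thbs1 (-1.16 ± 0.29), Ddr1 (-0.95 ± 0.19), Lama5 (-0.69 ± 0.20) and Nid2 (-1.10 ± 0.33). Of these lower calls 0 were kept with wild type libraries only or with a fold change over 0.5 required. In these settings 3 and 6 genes of the lists were called higher. Fibroblast and progenitor markers, 7 of 7 detected in all libraries, summed to 633 to 1911 CPM in iWAT, 313 to 627 CPM in eWAT and 207 to 279 CPM in iBAT. They had the order of the type I and III collagens, with no overlap between tissues, and their part in these differences was not tested.

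Finally, ko and wt mice were compared. Across the 3 tissues 0 of the 39 members passed in edgeR, where 0.00534% of all genes did. An unadjusted p under 0.05 was found for 5 of the 39, a larger share than the 2.19% of all genes. When the 4 named libraries were left out, 1 member remained under this p, beside 2.41% of all genes. In iBAT, iWAT and eWAT alone 0, 0 and 0 passed, where 0%, 0% and 0.00534% of all genes were called. Under an unadjusted 0.05 were 0, 4 and 4 of the 39, beside 1.27%, 2.22% and 4.35% of all genes. The interaction of genotype with tissue called 0 members and 0% of all genes, with 1 member and 1.41% of all genes under an unadjusted 0.05. In the 4 genotype contrasts DESeq2 and limma also called 0 members. For the members the SE of the fold change across tissues was 0.13 to 1.01 log2 units with a median of 0.27. The SE is not a limit of detection, and differences well above it can also have been missed. The highest difference across tissues, 1.54 log2 units, did not pass. The 9 libraries per genotype came from 3 mice and entered this fit without a term for the mouse, so that its SE and p measure the spread between libraries. With counts summed per mouse, 3 against 3, 0 members passed as well.

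**Figure D5:**
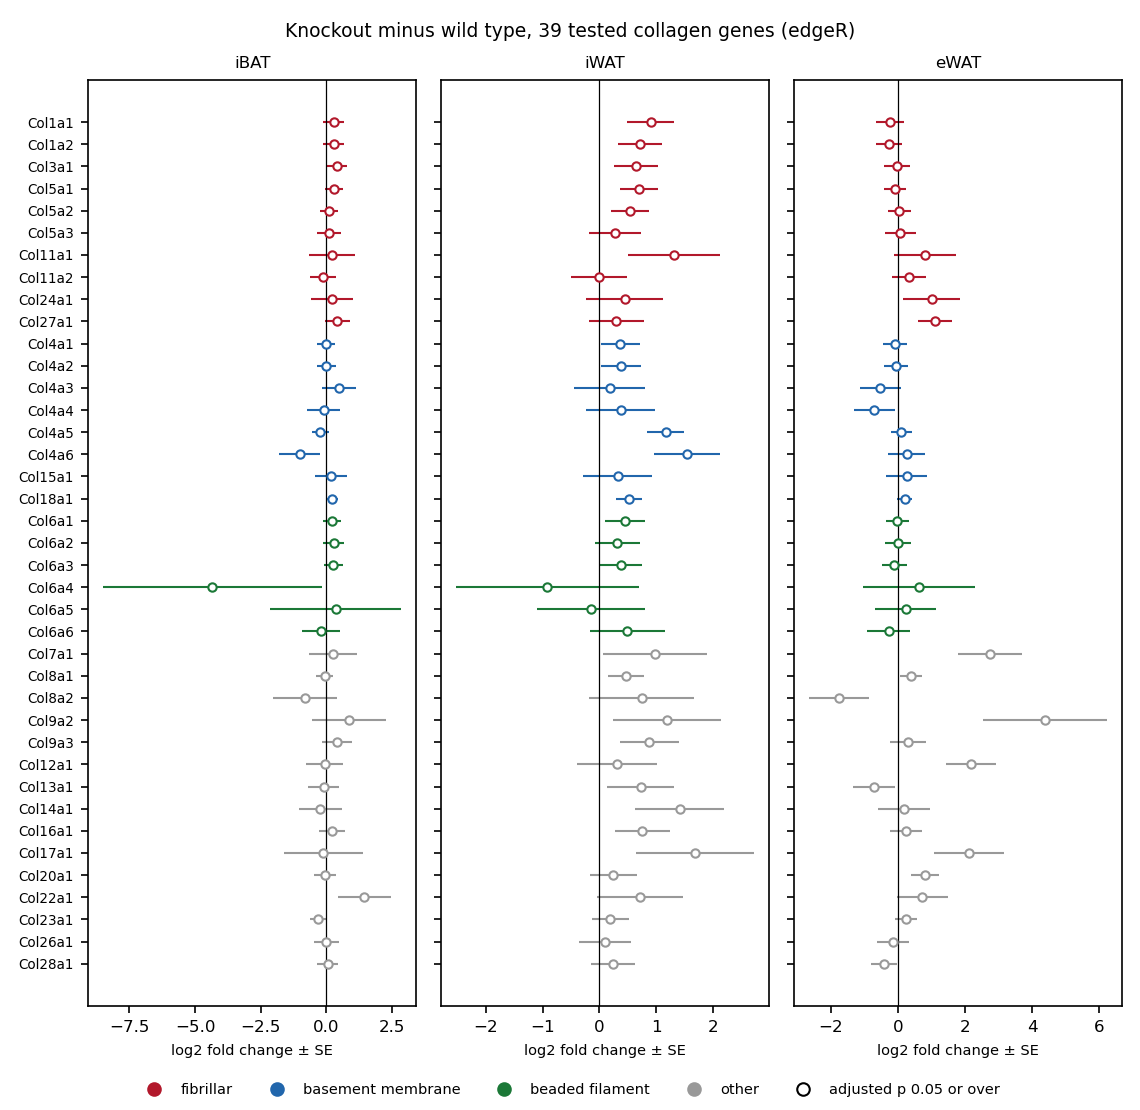
Log2 fold change of knockout against wild type for the 39 tested collagen genes in each tissue, with the SE as bars; horizontal scales differ. All points are open, since 0 passed an adjusted p of 0.05 in edgeR. In iWAT 36 of 39 points lie above 0, in iBAT and eWAT 24 each.

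The abundant chains illustrate the size of the error. Col1a1 in iBAT was at 89.6, 142 and 92.9 CPM in wt and 111, 134 and 149.8 CPM in ko libraries, and the groups overlapped (0.28 ± 0.41 log2 units). In iWAT it was at 922, 878 and 1095 CPM in wt and 1469, 3206 and 735 CPM in ko, and again overlapped (0.90 ± 0.42, unadjusted p = 0.047 and adjusted p = 1 in edgeR, and -0.30 ± 0.26 without the 4 named libraries). In eWAT it was at 298, 314 and 294 CPM in wt and 287, 342 and 139 CPM in ko (-0.24 ± 0.41). Col4a1 had differences of -0.01 ± 0.35, 0.37 ± 0.35 and -0.09 ± 0.35 in the 3 tissues, and that in iWAT was -0.25 without the 4 named libraries. Over all members the median fold change in iWAT was 0.46 and over all genes -0.01, with 36 members above 0 and 3 below. Of the iWAT libraries named above for markers of another tissue, 2 were ko and 1 was wt, and these 3 also held the higher lymphatic endothelial markers. With the 4 named libraries left out, which leaves 1 ko and 2 wt libraries of iWAT, the members' median in iWAT turned to -0.30 and 0 members passed in edgeR, with 7 under an unadjusted p of 0.05. In this fit 0.0546% of all genes were called and 4.95% were under that p, and the lone ko library is assumed to vary like the other groups. Fibroblast markers in iWAT were at 1174, 847 and 684 CPM in wt and 1911, 1281 and 633 CPM in ko libraries, so that their median was higher in ko while the ranges overlapped, and their part was not tested. The median across tissues was 0.25 with all libraries and 0.13 without the 4 named ones.

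Of the members with the smallest unadjusted p, Col4a5 in iWAT was at 7.37, 4.77 and 8.54 CPM in wt and at 15.4, 20.8 and 10.2 CPM in ko, without overlap (1.16 ± 0.32 log2 units, unadjusted p = 0.0024 and adjusted p = 1 in edgeR). Without the 4 named libraries it was 0.75 ± 0.41 (unadjusted p = 0.095). Its neighbour Col4a6 was at 0.617, 0.484 and 1.95 CPM in wt and 0.889, 3.76 and 4.26 CPM in ko, and overlapped. With the 4 left out it was 2.93 ± 0.46 (unadjusted p = 3.7e-05, adjusted p = 0.054). The 1 ko library that then remains, replicate 3, had 54.8 CPM of the 5 mesothelial markers and the 2 wt libraries 3.12 and 3.63 CPM. For the 4 epidermal markers these values were 15.3, 4.16 and 4.15 CPM. The part of both lists was not tested. In iBAT and eWAT the differences of Col4a5 were -0.22 ± 0.33 and 0.10 ± 0.31, and its interaction had an unadjusted p of 0.020 and an adjusted p of 1. Those of Col4a6 and Col12a1 followed with unadjusted p of 0.053 and 0.093. Across tissues Col18a1 (0.32 ± 0.13), Col17a1 (1.54 ± 0.66) and Col9a2 (1.51 ± 0.67) had the smallest unadjusted p in edgeR, 0.022, 0.033 and 0.039, and the adjusted p of each was 0.999888. With counts summed per mouse Col18a1 was 0.37 ± 0.15 (unadjusted p = 0.050, adjusted p = 0.999676). In iBAT they were those of Col22a1 (1.46 ± 1.02), Col4a6 (-1.005 ± 0.78) and Col3a1 (0.42 ± 0.39), none under 0.17. In eWAT the smallest p belonged to Col12a1, at 2.55, 0.679 and 1.136 CPM in wt and 4.68, 8.54 and 6.88 CPM in ko (2.20 ± 0.75, unadjusted p = 0.010). Col7a1 followed with 2.75 ± 0.97, which was -0.61 without ko replicate 3, and Col9a2, with 0 counts in each wt library and 0, 1 and 7 counts in ko, the 7 in replicate 3, without which the unadjusted p was 0.24.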

How the data were processed

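The series gave 1 table with 18 libraries, in which the authors deposited estimated counts per gene (expected counts) as whole numbers. According to the study's methods, poly(A) RNA was made into libraries with NEBNext Ultra II and sequenced paired-end on a NovaSeq, reads were filtered with cutadapt, and salmon was run against GENCODE M22 transcripts, alone or joined with RNAcentral, and the submitters name the build GRCm38. For this table the reference chosen, the strandedness and how transcripts were summed to genes are not given in the sources used here, so that genes sharing sequence may share counts. The counts were used as deposited and not rounded further.

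Genes were filtered with filterByExpr by group, scaled by TMM and tested with the quasi-likelihood test of edgeR 4.0.16 in R 4.3.3, with Benjamini-Hochberg adjustment over 18728 genes and a threshold of 0.05. Tissue contrasts and the genotype contrast across tissues came from a model with tissue and genotype, the genotype contrasts within tissues and the interaction from a model of 6 group means. The SE was taken from the log2 fold change and its F. CPM are scaled by TMM, and TPM use transcript lengths of GENCODE M21, the release at hand, which is not the M22 of the study. Ratios of chains were tested with an exact paired permutation test. Sequences and shares were handled with Python 3.11.15 and pandas 2.3.3. The procedure was tested on simulated data. Tissues with the same genotype and number came from the same mouse, so that fits with the mouse as a block were made beside the main ones. The correlation of deviations within a mouse was between -0.165 and 0.326. The genotype contrast across tissues and the tissue contrasts treat the libraries of 1 mouse as independent, so that their p-values measure the spread between libraries, and the genotype contrast was also fitted on counts summed per mouse. Leaving out the 4 libraries in the genotype contrast of iWAT was chosen after seeing the data.

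The alternatives were DESeq2 1.42.0 (test and size factors), limma 3.58.1 with quality weights, upper quartile scaling, other filters, a fold threshold, subsets of tissues and genotypes, and leaving out each replicate or the 4 libraries with markers of other tissues. The members, classes, marker and pathway lists were chosen with earlier results of these data known. Values are given for types I, III, IV, V, VI, XV and XVIII, beyond these for the 3 called members with the largest change in each direction and contrast, for the 3 with the smallest unadjusted p per genotype contrast, and for 2 genes per pathway list, direction and contrast, not all of which are printed.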

Additional observations from a re-analysis of the deposited data

Results flagged for a closer look

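For each of the 39 tested members and each tissue, 117 groups of 6 libraries in all, the highest or lowest library was compared with the others by Dixon's ratio on log2(CPM + 0.1). In 12 groups a library lay further apart than the 95% limit, where chance gives 5.85. All 12 were in eWAT, 11 of them in ko replicate 3 and 1 in wt replicate 1.

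The eWAT library of ko replicate 3 stood apart at the low end for 6 members, with 139 CPM of Col1a1, 282 CPM of Col1a2, 644 CPM of Col4a1, 495 CPM of Col4a2, 124 CPM of Col5a1 and 52.8 CPM of Col6a3. It stood apart at the high end for 5 members, with 48.0 CPM of Col7a1, 0.347 CPM of Col9a2, 3.17 CPM of Col11a2, 7.03 CPM of Col20a1 and 29.8 CPM of Col27a1. In the same library the epididymal markers summed to 4821 CPM, the epidermal markers to 79.7 CPM and the adipocyte markers to 13904 CPM, against 19158 to 33983 CPM of adipocyte markers in the other eWAT libraries. Their part in the collagen values was not tested. In eWAT wt replicate 1, Col8a2 was at 14.9 CPM and in the other libraries at most at 2.38 CPM. This library had 16.4 CPM of the 5 epididymal markers. It also had 33.0 CPM of 4 cartilage markers, against 7.12 to 20.3 CPM in the other eWAT libraries. The part of these markers was not tested.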

How the results depend on the processing

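Of the calls between tissues, 17 of 28 for iBAT against iWAT, 22 of 31 for iBAT against eWAT and 4 of 16 for iWAT against eWAT held under every alternative run, and 0 of the called members changed sign. Collagen calls between iWAT and eWAT were 9 with at least 10 counts in every library, 5 with wild type libraries only, and 10 to 17 with a replicate left out. Pathway calls there were 7 with the 2 tissues alone, 3 with wild type only, 6 with a fold change over 0.5 required, and 7 to 14 with a replicate left out. Fewer samples or genes enter these fits, except that the fold change requirement is a stricter test on the same ones. With upper quartile scaling the median of all genes moved to -0.24 and -0.27 for iBAT against iWAT and eWAT. Without mitochondrial genes the mean collagen share of iBAT was 0.246%.

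Some differences that were not called changed sign between iWAT and eWAT, and the cause was not tested. Col7a1 was 0.92 with limma, 0.22 with the mouse as a replicate block, 0.48 with wild type only, 1.09 without the 4 libraries, and -0.88 to 1.16 with a replicate left out. Col5a1 was -0.015 with limma, -0.26 with wild type only, -0.28 without the 4 libraries, and -0.035 to 0.30 with a replicate left out. Col6a4 was -1.95 with limma, -0.048 with the block and -1.14 without the 4 libraries. Col12a1 was -0.11 with limma and -0.38 without the 4 libraries, Col14a1 -0.75 without them, and Col4a3 0.24 with limma. Col18a1 was 0.023 with limma and -0.19 to 0.077 with a replicate left out, and Col4a1 -0.31 to 0.027. For iBAT against iWAT, Col4a3 was -0.44 to 0.019. The genotype difference of Col7a1 in eWAT was -0.36 with limma and -0.61 to 3.27 with a replicate left out.

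Chain ratios with 5 of 6 mice cannot go below p = 0.0625 in the exact test. With a mouse left out the log2 differences were 0.57 to 0.66 and 0.66 to 0.73 for Col1a1/Col1a2 in iBAT and iWAT against eWAT, and -0.73 to -0.61 for Col3a1/Col1a1 in iBAT against eWAT. For Col4a1/Col4a2 they were -0.24 to -0.22, 0.055 to 0.067 and 0.29 to 0.30 in the order of the 3 contrasts, and for Col6a3/Col6a1 -0.74 to -0.69, 0.66 to 0.80 and 1.36 to 1.51. Without the replicate block, Col3a1/Col1a1 in iWAT against eWAT, -0.82, passed in an exact permutation test with an adjusted p of 0.0058. The labels do not tie a wild type to a knockout mouse of the same number, and the correlations of their deviations were -0.465 to 0.551, and with that number as a replicate block 0 members were called in the genotype contrasts. With the mouse as a block 28, 30 and 15 members were called between tissues. Depth limits members with few counts, such as Col6a4, Col9a2 and Col17a1 in iBAT.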
